A study of Homo sapiens with 18 samples.

Results

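Cholesterol synthesis and its control were examined through 8 of the 19974 protein-coding genes compared (autosomes and X). SREBF1, SREBF2 and INSIG1 regulate the pathway, and HMGCS1, IDI1, FDPS, FDFT1 and SQLE encode enzymes in it. The genes were taken from a list of names, and each was described by all peaks that overlapped its gene record in GRCh38 or the 10 kb either side of it, called the window below. Peaks inside the record, away from its ends, were therefore included.

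Cells make cholesterol from acetyl-CoA by way of mevalonate, isoprenoid diphosphates and squalene. The transcription factors SREBP1 and SREBP2, encoded by SREBF1 and SREBF2, are held in the membrane of the endoplasmic reticulum, where INSIG proteins retain them while sterols are plentiful. When sterols fall, the factors move to the Golgi, are cleaved, enter the nucleus and bind sterol elements in the promoters of lipid genes, including SREBF2 and INSIG1 themselves. Fast-growing tumour cells draw on the same pathway for membranes and for the isoprenoid groups that anchor RAS proteins.

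The data were lists of ChIP-seq peaks from MDA-MB-231, an established human triple-negative breast cancer line. The parental line was profiled for KDM2B, a histone demethylase that binds CpG-rich DNA and brings a variant Polycomb complex to it, and for the transcription factor MYC. Its histone marks were H3K4me3, found at promoters, and H2AK119ub and H3K27me3, placed by Polycomb complexes. H3K27ac, found at active promoters and enhancers, came only from MDA-MB-231 cells with an empty vector, so that mark and stock cannot be told apart. The labels name no drug treatment, and each of the 6 targets had 2 libraries but 1 list, so values carry no replicate error and no test between conditions was possible.

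The lists held from 20018 peaks for KDM2B to 306484 for H3K27me3, and read depth is unknown. The label of the line was checked at marker genes. H3K27ac was in the windows of all 6 mesenchymal and basal genes (78.2% of all genes), from a fold of 46.2 at MSN to 107.6 at EGFR. Of 6 luminal and epithelial genes it was absent at PGR and low at ESR1, with a fold of 7.31, and EPCAM had 10.6. The other 3 luminal and epithelial genes were higher, above the median of all genes with the mark, with 28.0 at GATA3, 32.65 at FOXA1 and 46.5 at CDH1. H3K4me3 was in the windows of all 6 genes of each set (82.6% of all genes). Its median fold was 50.0 at the mesenchymal and basal genes and 22.3 at the others, but CDH1 had 55.1. In both marks the folds of the sets overlapped, so the check does not fully separate them. These marker folds are the highest in each window. Peaks over neighbouring genes were not set apart, so a fold, such as that of CDH1, may belong to a neighbour.

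Promoter sequences of RefSeq (GRCh38.p14) were at hand for 9 starts of 6 of the 8 genes, and none was used for FDFT1 and SQLE. The 5 below carry the letters of motifs tied to sterol control or MYC, or belong to starts without KDM2B. Each runs 5′ to 3′ on the strand of its gene from 250 bases before the start to 50 from the start on. Capitals mark a sterol element (TCACNCCAC), a CCAAT box, the site of the SREBP partner NF-Y, or an E-box (CACGTG), the site of MYC and of SREBP1, on either strand.
SREBF2, chr22:41832855-41833154, plus strand: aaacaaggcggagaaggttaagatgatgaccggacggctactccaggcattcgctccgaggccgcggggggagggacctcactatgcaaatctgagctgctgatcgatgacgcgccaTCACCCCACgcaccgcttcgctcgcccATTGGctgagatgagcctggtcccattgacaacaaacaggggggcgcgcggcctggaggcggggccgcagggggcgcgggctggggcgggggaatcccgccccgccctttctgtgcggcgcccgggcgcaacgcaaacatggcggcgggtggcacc
INSIG1, chr7:155297628-155297927, plus strand: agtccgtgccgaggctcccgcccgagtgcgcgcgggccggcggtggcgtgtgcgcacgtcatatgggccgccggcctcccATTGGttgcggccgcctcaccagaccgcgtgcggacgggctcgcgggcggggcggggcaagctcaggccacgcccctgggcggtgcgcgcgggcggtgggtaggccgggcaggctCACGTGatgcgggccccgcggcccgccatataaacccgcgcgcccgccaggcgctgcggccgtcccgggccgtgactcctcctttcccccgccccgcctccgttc
HMGCS1, outer start, chr5:43313363-43313662, minus strand: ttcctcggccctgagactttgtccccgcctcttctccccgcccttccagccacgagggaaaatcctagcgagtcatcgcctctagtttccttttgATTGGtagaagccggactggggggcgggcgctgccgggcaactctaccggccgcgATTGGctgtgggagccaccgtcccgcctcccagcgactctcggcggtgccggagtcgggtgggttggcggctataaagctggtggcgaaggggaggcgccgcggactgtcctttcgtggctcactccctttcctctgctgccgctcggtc
IDI1, inner start, chr10:1048837-1049136, minus strand: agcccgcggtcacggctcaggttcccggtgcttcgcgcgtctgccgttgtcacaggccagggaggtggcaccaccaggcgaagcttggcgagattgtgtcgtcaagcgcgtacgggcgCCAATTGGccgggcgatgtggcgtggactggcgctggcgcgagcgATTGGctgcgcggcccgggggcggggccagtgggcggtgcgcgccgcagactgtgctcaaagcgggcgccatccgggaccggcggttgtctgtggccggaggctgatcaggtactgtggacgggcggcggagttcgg
FDPS, chr1:155308616-155308915, plus strand: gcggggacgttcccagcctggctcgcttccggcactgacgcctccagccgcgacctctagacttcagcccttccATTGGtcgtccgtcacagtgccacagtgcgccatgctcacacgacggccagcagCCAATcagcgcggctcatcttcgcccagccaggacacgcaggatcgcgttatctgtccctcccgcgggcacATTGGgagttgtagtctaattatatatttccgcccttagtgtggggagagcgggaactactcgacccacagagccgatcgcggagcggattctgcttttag

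The sterol element was found at 1 of the 9 starts, that of SREBF2, where its first base lies at -133 from the start. It occurs in 1.13% of 22132 promoters of protein-coding genes. A CCAAT box follows at -106. CCAAT letters were found at 6 of the 9 starts, against 34.6% of all promoters, with 3 copies each at FDPS and at the inner start of IDI1, where a pair of them overlaps. The E-box was found at INSIG1 alone, at -55, and occurs in 8.34% of promoters. A match in letters is not evidence of binding, and the absence of one says only that those letters are not in the promoter sequence searched at that start.

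All 8 genes carried MYC and both marks of active promoters, and 7 carried KDM2B. Peaks of MYC were in 8 of 8 windows, against 78.7% of all genes, H3K4me3 in 8 against 82.6% and H3K27ac in 8 against 78.2%. KDM2B was in 7 windows against 59.4% of all genes, and HMGCS1 was the exception. Among genes with H3K4me3 in the window these shares were 93.1% for MYC, 92.6% for H3K27ac and 71.2% for KDM2B, so the counts lie near that background. Among the 9112 genes with records as long as these (11800 to 74201 bp) they were 83.7%, 83.0% and 62.5%, and 87.5% for H3K4me3.

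KDM2B lay on an H3K4me3 peak at 7 genes (58.4% of all genes) and MYC on one at 8 (75.8%). KDM2B and MYC overlapped at 7 (58.2%), and KDM2B, MYC, H3K4me3 and H3K27ac were all in the window at 7 (57.3%). H2AK119ub was in 5 windows against 68.0% of all genes, 68.6% of those with H3K4me3 and 65.9% of those of like length. H3K27me3 was in 3 against 50.1%, 46.4% and 49.2%. SQLE and IDI1 had neither mark, as did 26.5% of all genes.

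**Figure D1:**
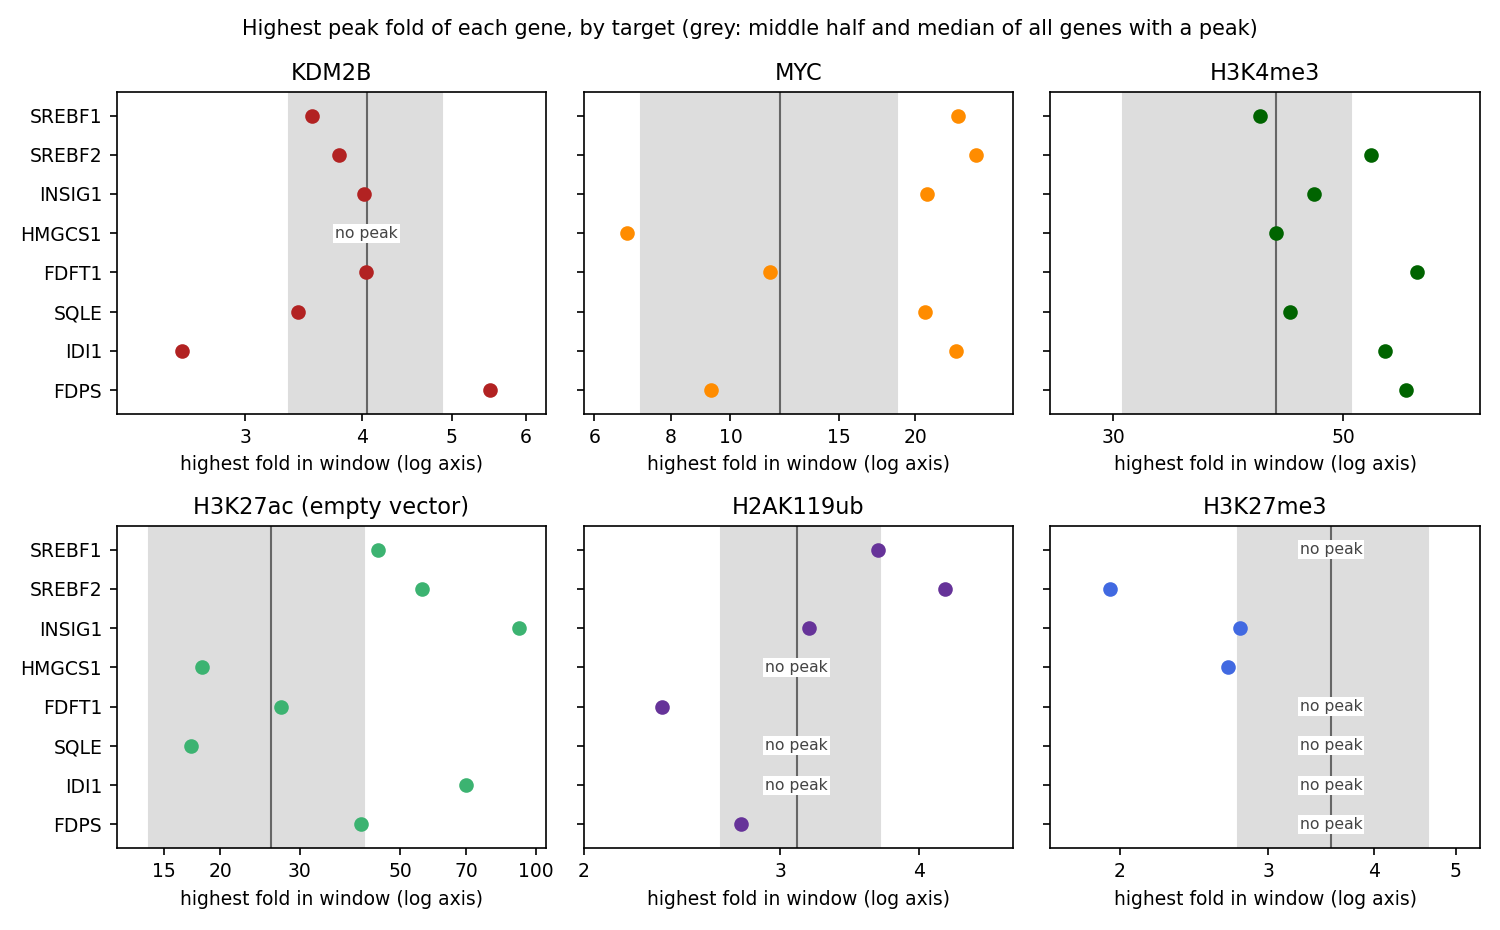
Highest fold of any peak in the window of each of the 8 genes, with 1 panel for each target and a log axis. The grey band is the middle 50% of all genes with a peak of that target and the line is their median. MYC at 5 genes lies right of the band, between 20.8 and 25.1 (at IDI1 by a peak shared with WDR37), while KDM2B lies at or left of its median line at 6 of the 7 genes that have it.

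The fold of a peak is the signal over background at its summit, and it was ranked only within its own list. MYC ranked high: the median over the 8 genes was 20.8, against 12.0 over the 15710 genes with MYC. The value of IDI1 in this median comes from a peak shared with WDR37 and that of FDPS from a peak over RUSC1. KDM2B did not rank high, with a median of 3.78 over 7 genes against 4.05 over 11865. The median of H3K4me3 was 50.1 against 43.1, and that of H3K27ac 42.8 against 25.8. For the Polycomb marks the medians were 3.18 over 5 genes against 3.10 (H2AK119ub) and 2.69 over 3 against 3.56 (H3K27me3). Percentiles below give the share of genes with a peak whose highest fold was at or below that of the gene.

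SREBF1, the gene of SREBP1 and a driver of fatty acid as well as sterol synthesis, spans 17811334 to 17836986 on chromosome 17, on the minus strand. A single MYC peak of 6633 bp with a fold of 23.5 (85.1st percentile) covered its start, and its width was at or above that of 98.5% of genes with MYC. The H3K4me3 peak there was 9849 bp wide with a fold of 41.6, and H3K27ac reached 44.8. KDM2B had a fold of 3.42 at a summit 291 bp downstream of the start and 3.53 at another upstream, at -3447 bp. Both KDM2B peaks lay inside the same MYC peak.

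Inside SREBF1 lay another group of sites, well downstream of the start. SREBF1 is known to use alternative promoters, but the RefSeq table used here gives 1 start for it. H3K4me3 had folds of 15.3 and 14.3 there, H3K27ac 11.9 and MYC 4.06, with the MYC summit 12776 bp from the start. A KDM2B peak of fold 2.33 was near the limit of the list, with a −log10 q of 1.78. An H2AK119ub peak of 7193 bp and fold 3.67, wider and of higher fold than those near the start, ended at the same base as the KDM2B peak, 17823584.

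H2AK119ub spread along SREBF1 as at none of the other 7 genes. Its 22 peaks covered 57.4% of the window, a share at or above that of 94.6% of all genes, while the next of the 8, SREBF2, had 14.9%. Of these peaks 11 touched the record, and 10 others lay over the neighbouring records of RAI1 and TOM1L2. Around the start 2 peaks overlapped the wide H3K4me3 peak, covering 21.4% of it, with a highest fold of 2.73. H3K27me3 had no peak in the window, and the nearest was 153266 bp from that H3K4me3 peak.

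**Figure D2:**
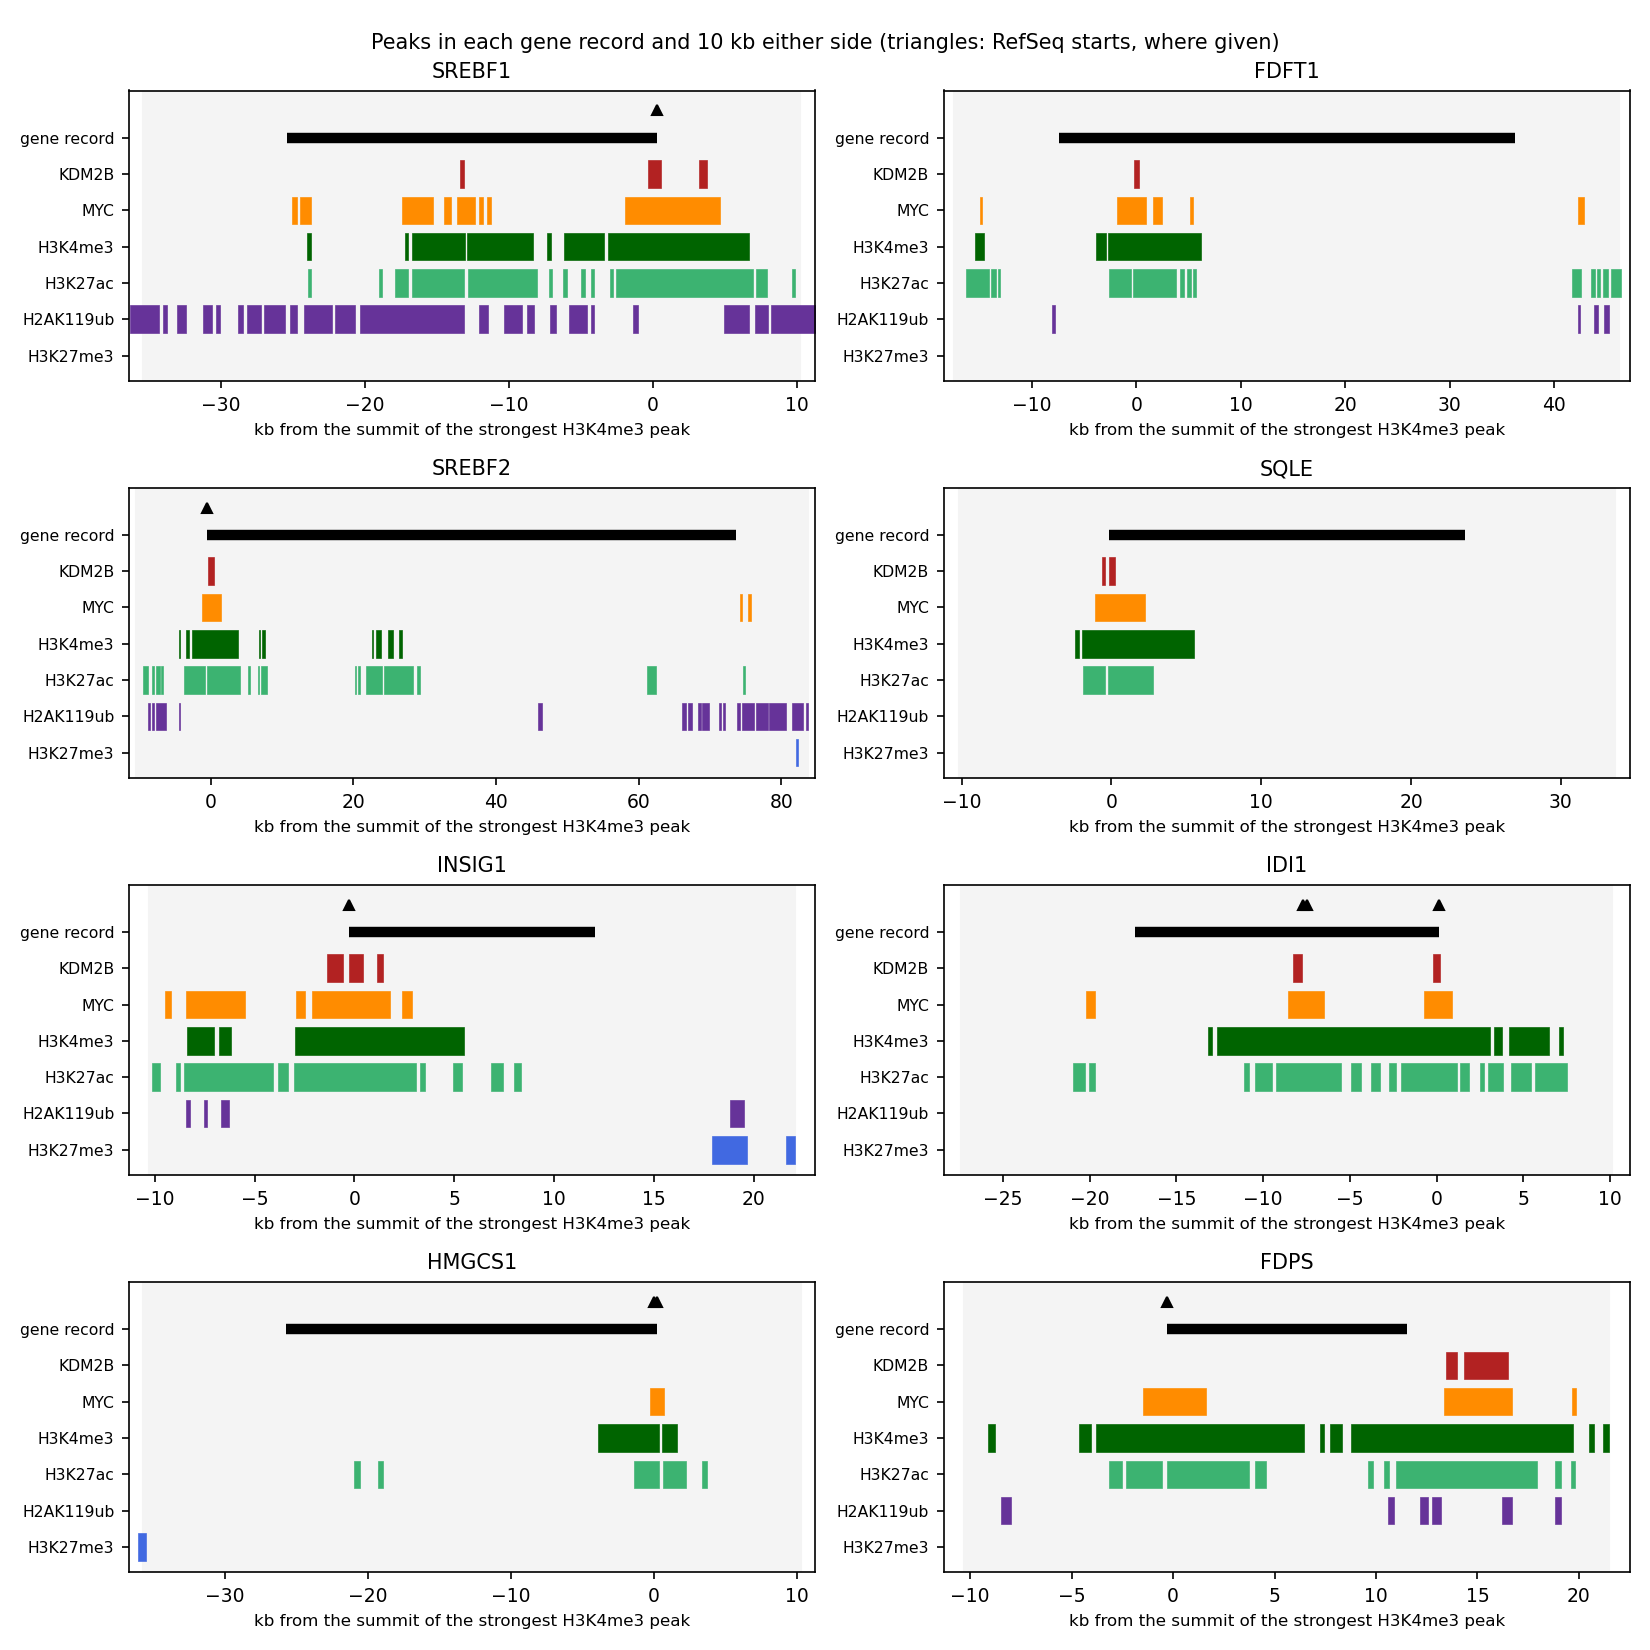
Peaks of the 6 targets along the window of each gene, drawn to scale in kb from the summit of its strongest H3K4me3 peak, in order of rising coordinate. The black bar is the gene record, triangles are RefSeq starts (none was used for FDFT1 and SQLE) and the grey field is the window. KDM2B at FDPS lies beyond the far end of the record, the KDM2B row of HMGCS1 is empty, and H2AK119ub runs along most of SREBF1 but leaves a gap around its start.

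SREBF2, the gene of SREBP2, the main activator of cholesterol synthesis, spans 41833105 to 41907305 on chromosome 22, on the plus strand. Its start had the highest MYC fold of the 8 genes, 25.1 (87.5th percentile), at a summit 581 bp downstream, and the MYC peak covered the whole promoter printed above. The KDM2B fold was 3.78 at 849 bp downstream, in the only KDM2B peak of the window. H3K27ac had a fold of 55.9 just downstream of the start and 25.9 in a separate peak upstream, which also overlapped the neighbour CCDC134. The upstream peak ended at 41832827 and the downstream one began at 41833034, and the sterol element lies between them.

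Within SREBF2, acetylation marked a region with neither factor. H3K27ac had folds of 12.5 and 10.3 at summits 25878 and 24155 bp downstream of the start, where H3K4me3 was weak at 4.09 and 3.90. No MYC or KDM2B peak lay there. H2AK119ub lay away from the start. Its highest fold, 4.22, was past the end of the record at the neighbour SHISA8, and 4 upstream peaks over CCDC134 had folds of 2.46 to 2.55. Within the record 7 peaks, the first with its summit 46526 bp downstream of the start, reached 3.10. The 1 H3K27me3 peak, of fold 1.95, was also past the end.

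INSIG1 encodes the protein that retains SREBPs in the membrane and is itself a target of SREBP. It spans 155297878 to 155310235 on chromosome 7, on the plus strand. Its H3K27ac fold of 91.7 was the highest of the 8 genes and stood at the 98.8th percentile. The MYC fold was 20.9, at a summit at -276 bp from the start, in a peak that covered the promoter and its E-box. KDM2B had 3 peaks, with folds of 4.03 upstream of the start, 3.52 just downstream and 3.34 further in, at 1462 bp.

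Upstream of INSIG1 a further site, with summits from -6267 to -7749 bp, had MYC of fold 8.81, H3K27ac of 7.98 and H3K4me3 of 4.16. No KDM2B peak was there. It held 3 of the 4 H2AK119ub peaks of the window, with folds of 1.81 to 2.49. The other, of fold 3.18, lay with the stronger of 2 H3K27me3 peaks, of fold 2.78, past the far end of the record.

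HMGCS1 makes HMG-CoA, an early intermediate of the pathway, and spans 43287470 to 43313412 on chromosome 5, on the minus strand. It was the only one of the 8 without KDM2B, and the nearest KDM2B peak was 116197 bp from its H3K4me3 peak. The MYC fold was 6.78, the lowest of the 8 genes and at the 23.1st percentile. H3K4me3, in contrast, had a fold of 43.1, equal to the median of all genes with the mark, and H3K27ac 18.2 (34.1st percentile). H2AK119ub was absent from the window, and H3K27me3 had a single peak of fold 2.69 at its edge, over the neighbour NIM1K.

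IDI1, which interconverts the isoprenoid units used to build longer chains, spans 1039152 to 1056704 on chromosome 10, on the minus strand. A single H3K4me3 peak of 15697 bp, the widest of the 8 genes, ran over all 3 of its RefSeq starts. The strongest peaks lay at the outermost start, where its record overlaps that of WDR37, so that they cannot be assigned to either gene. There the MYC fold was 23.3, H3K27ac 69.9 (95.6th percentile) and KDM2B 2.2.

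At the inner starts of IDI1, 1048886 and 1049119, which belong to IDI1 alone, MYC and H3K27ac were lower and KDM2B was slightly higher. The MYC fold was 8.50, H3K27ac 27.6 and KDM2B 2.57. Both KDM2B peaks of IDI1 were weak. Their −log10 q was 2.80 and 2.10, the higher fold stood at the 3.97th percentile, and neither peak remained with q under 1e-5. The window had no peak of either Polycomb mark.

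FDPS makes farnesyl diphosphate, the branch point between sterols and the lipid anchors of RAS proteins, and spans 155308866 to 155320665 on chromosome 1, on the plus strand. Its window had the highest KDM2B fold of the 8 genes, 5.49 (86.0th percentile), but not at FDPS. That summit was 15777 bp downstream of the start, over the record of RUSC1, and its peak lay on MYC of fold 9.30. At the start of FDPS the MYC fold was 8.77, H3K4me3 57.5 and H3K27ac 40.9, with no KDM2B peak within 6998 bp of the H3K4me3 peak. These MYC and H3K4me3 peaks had their summits inside FDPS but also overlapped the neighbour PKLR, whose record ends at 155308654. They may therefore belong in part to PKLR. The H3K4me3 peak at RUSC1 had a fold of 54.4, and 73.8% of the window was under this mark.

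FDFT1, the squalene synthase that commits farnesyl diphosphate to sterols, spans 11795582 to 11839298 on chromosome 8. Its main site lay inside the record, and H3K4me3 had its summit at 11803037 with a fold of 58.9, the highest of the 8 genes (92.3rd percentile). The summits of MYC (fold 11.6) and H3K27ac (27.2) were at the same base, and that of KDM2B (4.04) was 27 bp away. A further MYC peak nearby had a fold of 9.88. H2AK119ub was outside the record only, with folds of 2.23 to 2.35, and 3 of its 4 peaks overlapped the neighbour CTSB.

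SQLE, the squalene epoxidase and a target of antifungal drugs in fungi, spans 124998505 to 125022283 on chromosome 8. All of its KDM2B, MYC and H3K27ac peaks clustered at the lower end of the record. The MYC fold was 20.8 (80.1st percentile) in a single peak of 3300 bp. KDM2B had folds of 3.42 and 2.92, with summits 38 and 441 bp from that of MYC and −log10 q of 4.95 and 2.98. H3K27ac was the lowest of the 8 genes at 17.2 (31.9th percentile), and neither Polycomb mark was in the window.

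The genes thus differed in how the targets combined. By MYC fold at or near their own sites, SREBF2, SREBF1, INSIG1 and SQLE stood between 20.8 and 25.1, FDFT1 at 11.6, FDPS at 8.77 and HMGCS1 at 6.78. The MYC peak used for FDPS also overlapped PKLR. IDI1 stood at 23.3 by the peak shared with WDR37 and at 8.50 by its inner starts. By H3K27ac the order of the other 7 was INSIG1, SREBF2, SREBF1, FDPS, FDFT1, HMGCS1 and SQLE, from 91.7 to 17.2. IDI1 came after INSIG1 by the shared peak, with 69.9, and between FDPS and FDFT1 by its inner starts, with 27.6. SQLE thus had high MYC with the lowest acetylation, and FDPS low MYC with H3K27ac of 40.9. Without replicates, no neighbours in these orders can be told apart.

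KDM2B and MYC met at every KDM2B peak of the 7 genes. All 14 peaks overlapped MYC, H3K4me3 and H3K27ac, against 96.4%, 97.6% and 91.7% (and 91.0% for the 3 together) of the 14605 KDM2B peaks in the windows of all genes, so these counts lie near the background. The summits of KDM2B and MYC were between 27 and 3874 bp apart, with a median of 266 bp, and 11 of the 14 were within 1 kb. Some of these distances run to the same MYC summit, as at INSIG1, and those of FDPS lie over RUSC1. Summit distances were not computed for the KDM2B peaks of all genes, so they cannot be called particular to these genes. H2AK119ub overlapped 2 of the 14, at the inner site of SREBF1 and at RUSC1, against 26.1% of all such peaks. H3K27me3 overlapped 0 of the 14, against 3.98%.

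Polycomb marks were off the strongest H3K4me3 peak at 7 of the 8 genes. On the strongest H3K4me3 peak of each window, H2AK119ub was present at 1 of 8 genes, SREBF1, against 39.0% of the 16499 genes with H3K4me3, and H3K27me3 at 0 against 12.3%. On the same peaks MYC and H3K27ac were at 8 of 8 (91.3% and 90.4% of genes) and KDM2B at 6 (69.6%), lacking at HMGCS1 and FDPS. The 3 H3K27me3 calls, at SREBF2, INSIG1 and HMGCS1, all lay outside the records, and none remained with 5 kb either side. Within 1 kb of a RefSeq start, a setting chosen after seeing the data, H2AK119ub was at 0 of 6 genes (34.5% of 15812) and H3K27me3 at 0 (20.7%). KDM2B was at 4 (49.8%), and MYC, H3K4me3 and H3K27ac at 6 each (66.2%, 70.7% and 65.6%).

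**Figure D3:**
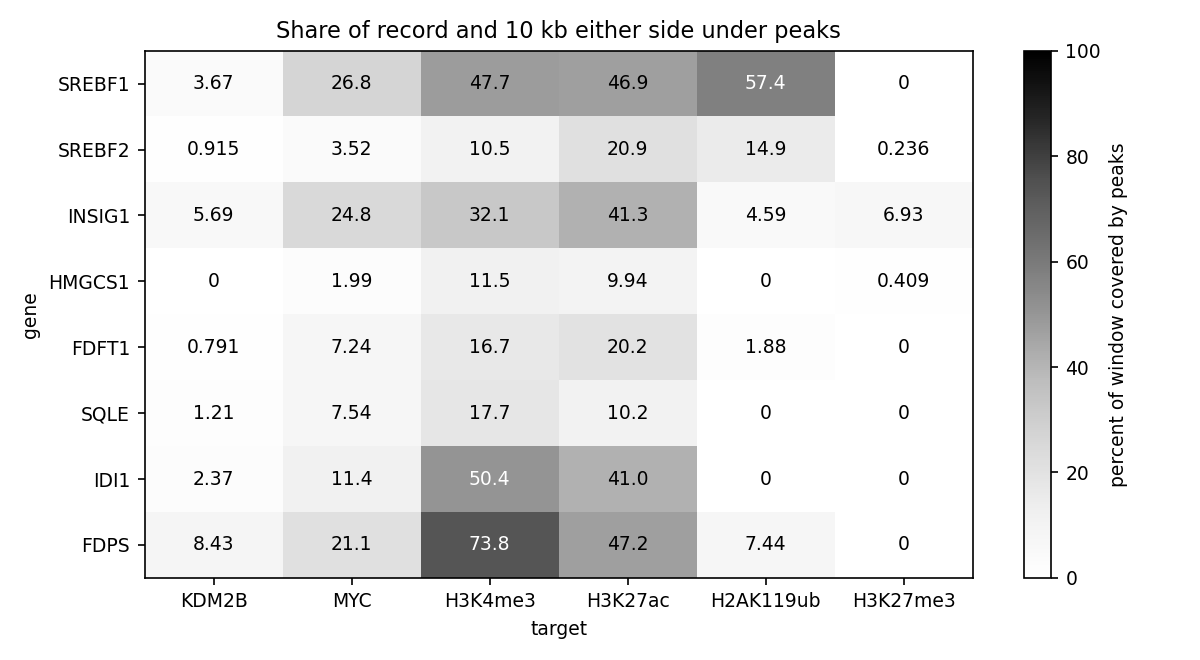
Percent of each window covered by peaks of each target, from white at 0 to black at 100, with the value in each cell. H2AK119ub covers 57.4% at SREBF1 and at most 14.9% elsewhere, and H3K4me3 covers 73.8% at FDPS, where the neighbour RUSC1 adds a wide peak.

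Active marks covered much of these windows. The median over the 8 genes was 31.0% for H3K27ac, against 6.42% over all genes, and 24.9% for H3K4me3 against 10.2%. MYC covered 9.47% against 2.96%. Neighbouring promoters within the window add to these shares, as at FDPS. The medians over all genes include genes without a peak of the target, whereas all 8 genes here had one. Coverage was not compared among genes with a peak only, or among genes of like length. For H2AK119ub the median was 3.23% against 2.36%, but it depended on the setting, with 0.281% at 1 kb either side, 1.11% with q under 1e-5 and 6.93% with peaks merged across 3 kb. For H3K27me3 it was 0% against 0.0469%.

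The rest of the pathway was followed through 41 further genes. Their folds, here and below, are the highest in each window. Peaks over neighbouring genes were not set apart, so a fold may belong to a neighbour, as at FDPS. MYC was in all 41 windows, against 78.7% of all genes and 93.1% of those with H3K4me3. H3K4me3 and H3K27ac were in 40 each (82.6% and 78.2% of all genes), both lacking at ABCG1, an exporter of cholesterol. At ABCG1 the MYC fold was only 2.43. H3K27me3 covered 86.9% of its window and H2AK119ub 48.1%, shares at or above those of 97.5% and 91.4% of all genes. Among genes with H3K4me3 the share with H3K27ac was 92.6%. H2AK119ub was in 28 (68.3%), against 68.0% of all genes. H3K27me3 was in 13 (31.7%), against 50.1% of all genes and 46.4% of those with H3K4me3. With the 15000 peaks of highest fold the counts of H2AK119ub and H3K27me3 fell to 5 and 4, and the share of all genes at that setting was not computed. KDM2B was in 32 (78.0%), against 59.4% of all genes and 71.2% of those with H3K4me3, and HMGCS1 had company among enzymes without it. PMVK, MSMO1, NSDHL, HSD17B7 and EBP, which act at mevalonate or late in sterol synthesis, had none, nor had INSIG2, MBTPS2 and ABCG1.

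Among 17 other mevalonate and sterol enzymes, KDM2B was at 12 (70.6%), near the 71.2% of genes with H3K4me3, with the highest folds at TM7SF2 (5.63), MVD (5.43) and SC5D (5.43). MYC was strongest at DHCR7, which makes cholesterol in its last step, with 33.7, then at ACAT2 with 29.8 and LSS with 25.3. The median MYC fold of this group was 15.2.

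The 4 other genes of SREBP processing fell into pairs. SCAP, the escort of SREBP, and MBTPS1, the protease that cuts it first, had MYC of 21.9 and 25.9 and KDM2B of 3.65 and 4.04. INSIG2 and MBTPS2 had no KDM2B, and their MYC folds were 3.33 and 12.2. INSIG1 and INSIG2, which encode proteins of like function, thus stood at the 80.4th and 7.38th percentiles of MYC.

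Of 11 genes of cholesterol uptake, storage and export, 9 (81.8%) had KDM2B, near the 71.2% of genes with H3K4me3. They included MYLIP (5.95), a ubiquitin ligase that limits cholesterol uptake, and ABCA1 (5.14), an exporter. The MYC fold was 24.2 at NR1H3 and 18.6 at NR1H2, which encode the oxysterol receptors LXR. The group's median MYC fold was 11.9, close to that of all genes with MYC.

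Genes of fatty acid synthesis driven by SREBP1 ranked highest for both factors. All 9 had KDM2B (59.4% of all genes, 71.2% of those with H3K4me3) and MYC (78.7% and 93.1%). The median folds were 5.47 and 33.0. ACACA, which makes malonyl-CoA, had the highest MYC fold at 48.0 (98.9th percentile) and KDM2B of 5.47. FASN, the fatty acid synthase, had 37.5 and 6.27, and FADS1 and FADS2, neighbouring desaturase genes that share their strongest peaks, both had 35.3 and 6.06. ACSS2, which makes acetyl-CoA from acetate, had KDM2B of 6.19 but MYC of only 6.36. The median percentile was 85.8 for KDM2B and 94.3 for MYC in this group, and 40.1 and 80.2 in the 8 genes, a difference that was not tested.

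**Figure D4:**
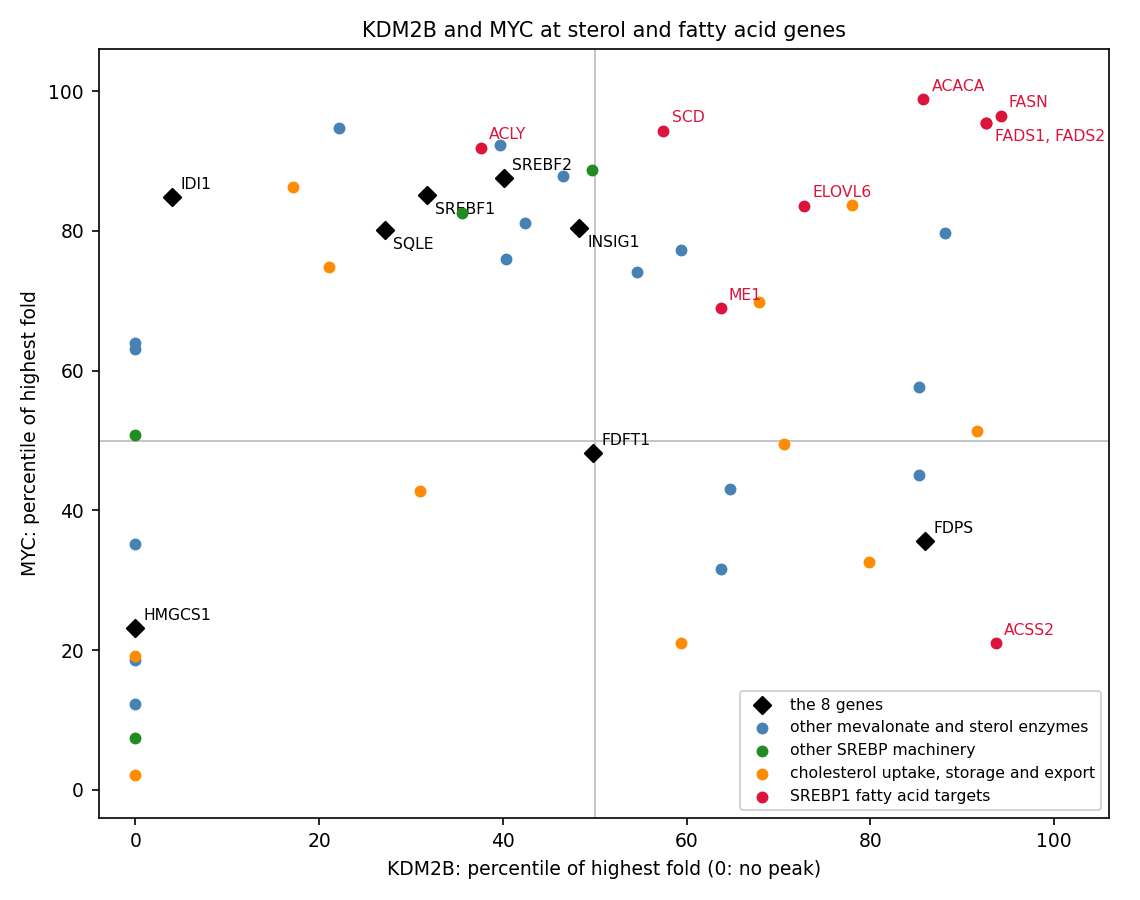
Percentile of the highest KDM2B fold (horizontal, 0 where there is no peak) and of the highest MYC fold (vertical) for the 8 genes (black diamonds) and the 41 further genes by group (circles). SREBF1, SREBF2, INSIG1, SQLE and IDI1 lie high on MYC and in the lower part of KDM2B, HMGCS1 is at 0 for KDM2B, and ACACA, FASN, FADS1 and FADS2 are at the upper right.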

How the data were processed

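The 18 libraries form 9 groups of 2 by target and cell stock. The ATF4 libraries were not analysed here. An enzymatic chromatin kit was used, per the labels' protocols. The submitters' processing notes name Trim Galore, Bowtie2 2.4.5, SAMtools 1.6, MACS2 2.2.7.1 and hg38. The control used and any pooling are not given in the sources used here.

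The deposited lists give a score for each peak, the fold (the ratio of signal to background, taken at the summit), the −log10 q-value and the summit position in bp from the start of the peak. Folds and q are the authors' values and were used only within a list. All lists are narrow peaks, which can split broad marks.

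Gene records and starts came from RefSeq (GRCh38.p14). Exons, introns and UTRs were not resolved. A gene was counted with 1 bp of overlap, and percentiles run over genes with a peak of that target. Counts ran in Python 3.11.15 with pandas 2.3.3 and were tested on simulated data. Named genes were the 8, up to 3 of each pathway group by KDM2B and by MYC fold, members of counts of 5 or fewer, neighbours, and the 3 nearest in pattern, and some genes the rule names are not reported here. The genes, lists and settings were chosen with earlier results of these data known. Alternatives were windows of 1, 5 and 50 kb, q under 1e-5, the 15000 peaks of highest fold, summits, 50% of a peak, merged broad marks and other backgrounds.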

Additional observations from a re-analysis of the deposited data

How the results depend on the processing

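No paired analysis was possible because each target has 1 list, and replicate numbers are not carried in the lists. Of 111 counts recomputed under other settings, 96 stayed within 1.5 times of the reported count. KDM2B was at 6 genes with 1 kb either side (FDPS lost), 5 with q under 1e-5 (SQLE and IDI1 lost), 6 with the 15000 peaks of highest fold (IDI1 lost) and 4 within 1 kb of a RefSeq start, where 6 genes could be counted. MYC, H3K4me3 and H3K27ac stayed at 8 in all 7 planned settings. H2AK119ub was at 2 genes with the 15000 peaks of highest fold and at 0 within 1 kb of a start. H3K27me3 was at 0 genes with 1 or 5 kb either side, with the 15000 peaks and within 1 kb of a start, at 1 with q under 1e-5 and at 6 with 50 kb either side. For the 41 pathway genes, MYC fell from 41 to 40 with q under 1e-5 and to 38 with the 15000 peaks. H3K27ac fell from 40 to 35 with the 15000 peaks. H2AK119ub fell from 28 to 18 with q under 1e-5 and to 5 with the 15000 peaks. H3K27me3 went from 13 to 4 with 1 kb, 8 with 5 kb, 27 with 50 kb and 4 with the 15000 peaks.

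The median highest fold of KDM2B was 3.60 with 1 kb either side, 4.69 with 50 kb and 4.03 with q under 1e-5. For H2AK119ub it was 3.01, 3.22 and 3.66 with 1, 5 and 50 kb and 3.43 with q under 1e-5. H3K4me3 moved to 52.2 with 50 kb, and H3K27me3 to 3.24 with 50 kb and 2.78 with q under 1e-5. The median share of the window under H2AK119ub was 0.281% with 1 kb, 0.239% with 5 kb, 6.32% with 50 kb, 1.11% with q under 1e-5 and 6.93% with peaks merged across 3 kb, and that under H3K27me3 was 3.08% with 50 kb. Of 142 single folds recomputed, 122 were unchanged, and 17 of the other 20 moved with 50 kb, where other genes enter the window. Depth is unknown, so an absent peak may lie under the detection limit of its list.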

Other observations

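Both SREBP genes host a microRNA in their record, MIR33B in SREBF1 (chromosome 17, 17813836 to 17813931) and MIR33A in SREBF2 (chromosome 22, 41900944 to 41901012). These are known to limit cholesterol export through ABCA1. Their 5p products, from RefSeq (GRCh38.p14), are shown because they share the seed in capitals, bases 2 to 8.
hsa-miR-33b-5p: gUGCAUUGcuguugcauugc
hsa-miR-33a-5p: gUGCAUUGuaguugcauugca
An H2AK119ub peak covered each hairpin, with a fold of 2.91 at MIR33B and 2.34 at MIR33A. No peak of the other 5 targets touched either. The nearest were 840 bp away at MIR33B (H3K27ac, fold 2.03) and 4973 bp at MIR33A (H3K27ac, fold 2.94), and the nearest H3K27me3 peak of MIR33B was 133515 bp away.

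The pattern of the 8 genes was also set beside those of all other protein-coding genes, using the 6 percentiles of highest fold, with 0 for no peak. The 3 genes nearest to the median of the 8 were PTDSS1 (Euclidean distance 10.1 in percentile points), TTC3 (10.3) and FEN1 (12.0). The 8 genes themselves lay between 45.2 (IDI1) and 88.1 (HMGCS1) from their own median. The nearest genes were picked for their small distance, and a missing peak counts as 0, which alone can move a gene far. Distances of all other genes were not summarised, so these values do not measure how alike the 8 genes are.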
